A study of Mus musculus with 3 samples.

Results

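The genes described here encode Mediator and the basal transcription machinery of mouse embryonic stem (ES) cells. They are 39 genes chosen by symbol, 32 Mediator subunits and 7 genes of the polymerase and its first helpers, of 52636 mouse genes in the tables, and all 39 symbols were found. The cells were RAD21-AID ES cells, derivatives of the line JM8.N4 of the C57BL/6N strain, grown without feeders in serum with LIF and the 2i inhibitors. Their RAD21, part of the ring-shaped cohesin complex, is fused to a degron (AID), so that the plant hormone auxin triggers destruction of the protein. Control cells were left untreated, and the others were given 500 µM auxin for 6 h. Both conditions carry the degron, so neither is an unmodified ES cell. There were 3 replicates, read by Smart-SCRB, in which each captured transcript molecule of a sorted cell receives a unique molecular identifier (UMI). Of 1536 wells on 16 plates, 1335 held cells with more than 2600 detected genes. The 1167 cells compared were 168 control and 169 auxin-treated cells in replicate 1, 371 and 290 for replicate 2, and 85 and 84 for replicate 3. In replicate 3 the deposited annotation and the source values of the study disagree on the condition of 2 of 4 plates, whose 168 cells were left out of the comparison.

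Mediator is the large complex that carries signals from transcription factors at enhancers to RNA polymerase II at promoters. Its head and middle modules touch the polymerase, its tail is the main docking site for activators, and a separable kinase module regulates the contact with the polymerase. TBP binds the core promoter and starts assembly of the initiation complex, CDK7 is the kinase of the initiation factor TFIIH, and P-TEFb, made of CDK9 and a cyclin T, releases paused polymerase. In this study MED1 and MED6 were imaged as hubs and TBP as single molecules while cohesin was removed, so the question here was whether the RNA of these and the other machinery genes changed after cohesin loss, and how it varied from cell to cell.

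Depth differed mainly between replicates. The sums per replicate and condition ran from 6064936 to 50448320 UMIs, and the median cell held between 72317 and 187088 UMIs. Levels are given as CPM, the UMIs of a gene per 1000000 mouse UMIs of the sum. The ES cell marker list (10 genes) summed to between 2989 and 10212 CPM in the 6 sums, most of it Dppa5a. Among its defining genes Nanog was at 58.6 and 38.9 CPM in replicate 2 and between 495 and 563 CPM in replicates 1 and 3. Klf4 (2.75 and 1.17 CPM against 27.5 to 141 CPM) and Esrrb (17.7 and 6.78 CPM against 61.7 to 125 CPM) were lowest in replicate 2 as well. Utf1 of the same list went the other way, at 182 and 174 CPM in replicate 2 against 9.20 to 52.1 CPM in replicates 1 and 3. Tdgf1 lay between 508 and 642 CPM in all 6 sums. Sox2, at 155 and 97.3 CPM in replicate 1, was at 0 in the 4 sums of replicates 2 and 3, and Pou5f1, at 273 and 228 CPM in replicate 1, lay between 5.81 and 12.5 CPM there. The fibroblast, endoderm and mesoderm lists stayed between 0.833 and 27.3 CPM, with Col3a1, Lum, Postn, Foxa2, Afp and Mesp1 under 1 CPM in all 6 sums. The highest fibroblast sum was mostly Dcn (22.6 CPM in auxin-treated cells of replicate 2). The highest mesoderm sum was mostly Eomes (19.0 CPM in control cells of replicate 1). The neural list (4 genes) lay between 100 and 129 CPM in replicate 1 and between 2.09 and 19.2 CPM in replicates 2 and 3. Of its genes, Tubb3 and Sox1 were at 0 in the 4 sums of replicates 2 and 3, as Sox2 was, and Pax6 had higher values in replicate 2 (up to 19.2 CPM) than in replicate 1 (0.388 and 1.51 CPM). Med20, described below, was also at 0 in these 4 sums. Whether the zeros of these genes reflect the cells or the counting was not tested. Rad21 itself was at 20.9 CPM in control and 19.3 CPM after auxin in replicate 1, at 31.2 and 34.0 CPM in replicate 2, and at 42.4 and 45.2 CPM in replicate 3. Auxin acts on the protein, so the RNA does not check the depletion.

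A UMI count is a count of molecules and was not divided by gene length. On this scale the 39 genes covered a wide range, with means over the 6 sums from 0.621 CPM (Med12) to 848 CPM (Cdk8). Med28, which encodes a head subunit, had the highest mean RNA level among the genes of the core complex. It was at 219 CPM in control and 244 CPM after auxin in replicate 1, at 233 and 256 CPM in replicate 2, and at 239.7 and 229.9 CPM in replicate 3. Med10, a middle subunit, followed with 151 and 143 CPM, 146 and 161 CPM, and 118 and 146 CPM. For both genes the ranges of the conditions overlapped. Both were called in the edgeR test of the replicate term described below (adjusted p = 0.0251 for Med28 and 0.0213 for Med10).

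**Figure D1:**
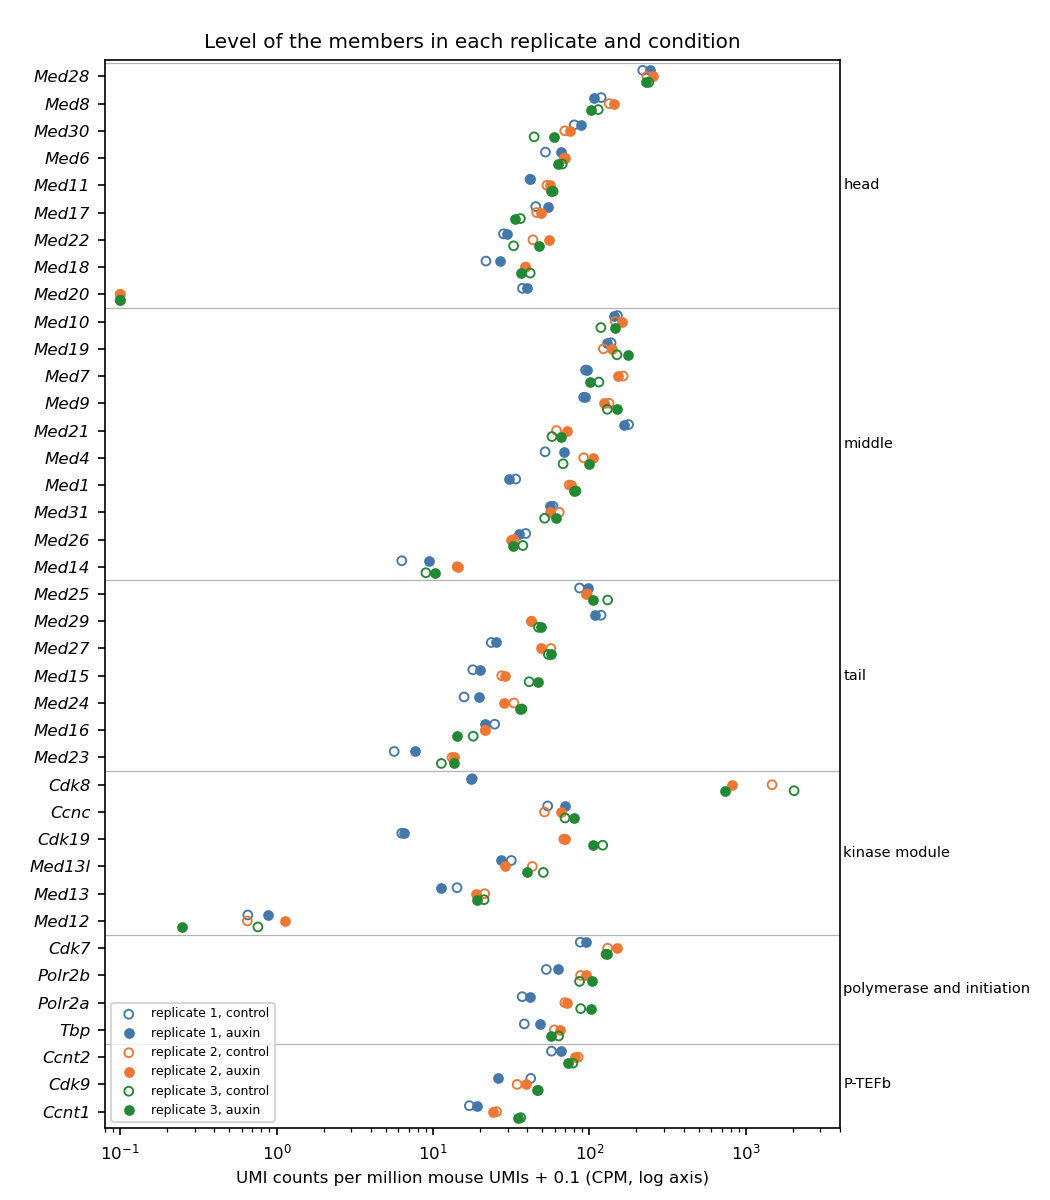
Level of each of the 39 members on a log axis, in CPM plus 0.1, with 1 point for each replicate (colour) and condition (open, control; filled, auxin). Control and auxin points of a replicate lie close together for most genes, while Cdk8, Cdk19, Med20, Med21 and Med29 separate replicate 1 from replicates 2 and 3.

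At the other end were Med23, Med14 and Med12. Med23, a tail subunit, lay at 5.55 CPM in control and 7.54 CPM after auxin in replicate 1, at 13.1 and 13.6 CPM in replicate 2, and at 11.2 and 13.5 CPM in replicate 3. Med14, which encodes the scaffold that joins the modules, lay at 6.21 and 9.31 CPM, 14.2 and 14.4 CPM, and 8.90 and 10.2 CPM. Med12, the kinase module subunit that activates the kinase, was the lowest of all, at 0.555 and 0.780 CPM, 0.551 and 1.03 CPM, and 0.660 and 0.150 CPM, which are between 1 and 52 UMIs per sum. In the annotation Med12 (ENSMUSG00000079487, mm10 chrX:101274030-101297465, plus strand) overlaps at its 3′ end the start of the processed transcript Gm21986 on the same strand, which was at 0.166 CPM in 1 sum and at 0 in the other 5. The level of Med12 rests on few molecules, and whether the overlap bears on it was not tested.

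The 3 genes whose proteins were followed by imaging had similar, moderate levels. Med1 encodes the middle subunit contacted by nuclear receptors. It lay at 33.7 CPM in control and 30.7 CPM after auxin in replicate 1, at 74.3 and 76.0 CPM in replicate 2, and at 81.9 and 79.1 CPM in replicate 3. Within each replicate the conditions were closer to each other than replicate 1 was to the other two. Med6, a head subunit next to the polymerase, lay at 52.3 and 65.4 CPM, 69.1 and 69.4 CPM, and 66.9 and 62.7 CPM. Tbp lay at 38.2 and 47.9 CPM, 59.6 and 64.9 CPM, and 63.5 and 56.5 CPM. For all 3 genes the ranges of the conditions overlapped.

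With the 3 replicates as a block in edgeR's quasi-likelihood test, the log2 fold change of auxin over control was -0.06 ± 0.12 (SE) for Med1, with an adjusted p of 0.956. It was 0.07 ± 0.13 for Med6 (adjusted p = 0.955) and 0.08 ± 0.13 for Tbp (adjusted p = 0.945). None of these differences passed the threshold, and each was smaller than its standard error. The promoters of these 3 genes and of Cdk8, the gene that differed most among the members, are shown as the 100 bases before the RefSeq start of transcription, with matches to the searched motifs in capitals.

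Med1 (GRCm38.p6, chr11:98192907-98193006, minus strand): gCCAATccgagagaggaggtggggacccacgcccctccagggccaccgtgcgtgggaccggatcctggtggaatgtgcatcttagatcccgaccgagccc
Med6 (GRCm38.p6, chr12:81595009-81595108, minus strand): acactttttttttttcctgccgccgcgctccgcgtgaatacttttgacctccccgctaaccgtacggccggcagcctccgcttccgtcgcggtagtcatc
Tbp (GRCm38.p6, chr17:15499788-15499887, plus strand): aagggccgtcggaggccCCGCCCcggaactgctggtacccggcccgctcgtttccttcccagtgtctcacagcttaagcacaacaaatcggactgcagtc
Cdk8 (GRCm38.p6, chr5:146231150-146231249, plus strand): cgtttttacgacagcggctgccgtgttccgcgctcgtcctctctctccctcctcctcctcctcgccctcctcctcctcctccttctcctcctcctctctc

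None of the 4 stretches holds a TATA box (TATAAA), and Med1 holds 1 CCAAT box (CCAAT) and Tbp 1 GC box (GGGCGG, read on the other strand). They hold 7, 13, 8 and 8 CG dinucleotides in the order shown. RefSeq promoters were found for 34 of the 39 members, 38 promoters in all, and were searched on both strands over the 250 bases before the start. The GC box occurred in 26 of these 38 (68.4%), against 32.7% of all 32851 mouse promoters, and the ETS core (CCGGAAG) in 9 (23.7%) against 6.91%. The TATA box occurred in 4 (10.5%) against 12.4%. The median promoter of the members held 15 CG dinucleotides, against 6 over all promoters. These are descriptions of letters, and binding of a factor was not measured. No promoter entry was found for Cdk19, Med8, Med23, Med24 and Med30.

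The largest differences among the members lay between replicates and not between conditions. A test of the replicate term across 17514 genes called 9542 (54.5%), and among the 38 members that passed the filter on low counts it called 17, or 44.7%, so the members did not stand out from the background. Of these 17, 10 were higher in replicates 2 and 3 than in replicate 1, and 7 were lower. They were spread over 4 of 8 head, 5 of 10 middle, 4 of 7 tail, 3 of 6 kinase module and 1 of 4 polymerase and initiation genes. When replicate 1 was left out, which was added after seeing the data, only Cdk19, Med15 and Med7 were called, 3 of 38 members against 19.5% of all genes.

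Cdk8 and Cdk19 encode the alternative kinases of the kinase module. Cdk8 (ENSMUSG00000029635, mm10 chr5:146231230-146302874, plus strand) was at 17.7 CPM in control and 17.4 CPM after auxin in replicate 1, but at 1471 and 817 CPM in replicate 2 and at 2035 and 733 CPM in replicate 3. Cdk19 (ENSMUSG00000038481, mm10 chr10:40339564-40483818, plus strand) was at 6.21 and 6.45 CPM in replicate 1, 68.5 and 69.7 CPM in replicate 2, and 122 and 105 CPM in replicate 3. No plate of replicate 1 reached the lowest plate of replicates 2 and 3 for either gene. The largest step between replicates in the fit was 5.70 on the log2 scale for Cdk8 (edgeR, adjusted p = 6.49e-06) and 3.74 for Cdk19 (adjusted p = 3.84e-06). Cdk8 thus took 0.930% of the Mediator UMIs of control cells in replicate 1, 41.6% in replicate 2 and 49.7% in replicate 3.

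Other subunits went the opposite way. Med21, a middle subunit, fell from 178 CPM in control and 165 CPM after auxin in replicate 1 to 61.5 and 71.6 CPM in replicate 2 and 57.5 and 66.1 CPM in replicate 3 (edgeR, adjusted p = 2.30e-05). On the opposite strand within Med21 lies the processed pseudogene Gm6654, which was at 1.89 and 1.98 CPM in replicate 1, 54.9 and 60.1 CPM in replicate 2, and 26.9 and 48.2 CPM in replicate 3. Med29, a tail subunit, was at 119 and 109 CPM, 42.6 and 41.9 CPM, and 47.2 and 48.9 CPM (adjusted p = 2.90e-05). In replicate 1 these 2 genes were thus above the levels of the other replicates in both conditions.

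Med20, a head subunit, was at 37.2 CPM in control and 39.7 CPM after auxin in replicate 1. In replicates 2 and 3 it had 0 UMIs in 830 cells, which allows a share of cells with a UMI of up to 0.361%, and 0 UMIs in all 1152 wells. Its gene (ENSMUSG00000092558, mm10 chr17:47611582-47624418, plus strand) overlaps the longer gene Gm20517 on the same strand, which had between 1.05 and 4.16 CPM in the 6 sums. Med20 was not alone in this. Of 5564 genes with at least 20 CPM in both sums of replicate 1, 114 had at most 3 UMIs in replicates 2 and 3 together, and 112 of these (98.2%) overlap another gene on the same strand, against 21.5% of the 5564. Whether reads of Med20 were assigned differently among the replicates was not tested.

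Gene length also moved with the difference between replicates. Over the genes tested, the median log2 ratio of control cells in replicates 2 and 3 over replicate 1 was 0.09 in the first and 1.13 in the last of 4 equal length classes, from short to long. Among the members, 28 of 39 had a log2 ratio above 0. The ratio was above 1 on the log2 scale for Med1, Med23, Med24, Med27, Cdk8, Cdk19 and Polr2a and below -1 for Med20, Med21 and Med29. The lengths of Cdk8 (71645 bases) and Cdk19 (144255 bases) fall in the longest class. The longer members Med27 (177975 bases) and Med13l (204760 bases) had log2 ratios of 1.21 and 0.55, against 6.55 and 3.73 for Cdk8 and Cdk19. The part of length in these differences was not tested.

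In replicates 2 and 3 the level of Cdk8 per cell correlated most with that of Gm42418. The genes named here were chosen after their values were seen, and no list was fixed for them. Per cell, the Spearman correlation of Cdk8 with Gm42418, a locus that overlaps ribosomal RNA sequence, on CPM per cell, was 0.76 in control cells of replicate 2 and 0.65 in its auxin-treated cells, and 0.59 and 0.61 for those of replicate 3. In each of these 4 groups Gm42418 ranked first among the other genes averaging 1 count or more, between 7906 and 10450 genes. In replicate 1 the same correlation was 0.05 and 0.04. The mitochondrial ribosomal RNA mt-Rnr1 correlated with Cdk8 at 0.56 and 0.35 in replicate 2, at 0.33 and 0.31 for replicate 3, and at -0.09 and -0.005 in replicate 1. The other mitochondrial ribosomal RNA, mt-Rnr2, was at 0.56 and 0.38 in replicate 2 but at 0.17 and 0.14 for replicate 3, where it ranked 460 and 760. Mir6236 was at 0.61 and 0.52, and at 0.34 and 0.21. Of 2 protein-coding genes looked up, Cmss1 was at 0.53 and 0.51, and at 0.16 and 0.43, and Camk1d at 0.48 and 0.48, and at 0.35 and 0.23. Cmss1 ranked 510 in control cells of replicate 3, and Camk1d and Mir6236 ranked 156 and 238 in its auxin-treated cells. Other genes ranked above both Cmss1 and Camk1d. These were F2r in control cells of replicate 2, and Anp32a and Ncl in control and auxin-treated cells of replicate 3. Apart from Gm42418, the order of these genes thus differed between the replicates. These correlations are over 84 to 371 cells per group, which in replicate 2 come from 4 plates and differ in UMI total.

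Cdk19 had another partner. In both conditions of replicates 2 and 3 its highest correlation was with Furin, a protease gene, at 0.51 and 0.59 in replicate 2 and 0.71 and 0.52 for replicate 3, while Cdk19 and Cdk8 correlated with each other only between -0.08 and 0.06. Furin lay between 11.8 and 21.8 CPM in these 4 sums.

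In replicate 2 the share of Cdk8 UMIs in the highest cells lay within the range of the other members compared. In control cells of replicate 2 the median cell held 1179 CPM of Cdk8 and the highest 15721 CPM, and the 38 highest of 371 cells held 36.3% of its UMIs. The same number of cells held 35.4% of the UMIs of Polr2a, 32.1% for Med1, 32.5% for Med6 and 43.3% for Cdk19. In control cells of replicate 1, where Cdk8 averaged 1.90 UMIs per cell against 194 in replicate 2, the 17 highest of 168 cells held 56.7% of its UMIs.

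Between conditions no member was called over the 3 replicates, and Cdk8 had the largest estimate. Without a block no gene of 17514 was called (0%), 33 had an unadjusted p under 0.05 (0.188%), and none of the 38 members was among them. DESeq2 called 0 genes as well, with 66 at an unadjusted p under 0.05. With the replicates as a block, 3 genes (0.0171%) were called, Klf4 and Klf5 lower and Dkk1 higher, none of them a member, and 1036 genes (5.92%) had an unadjusted p under 0.05. These included 4 of the 38 members, Med4 and Ccnc higher and Cdk8 and Med13l lower. Of the members, 21 had a fold change above 0 and 17 below, with a median of 0.03 on the log2 scale beside 0.00291 over all genes. Of the 37 members other than Cdk8, 33 lay within 0.25 of 0 on the log2 scale, with a median standard error of 0.12. In sums over cells, less RNA per cell and fewer cells that hold it cannot be told apart.

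**Figure D2:**
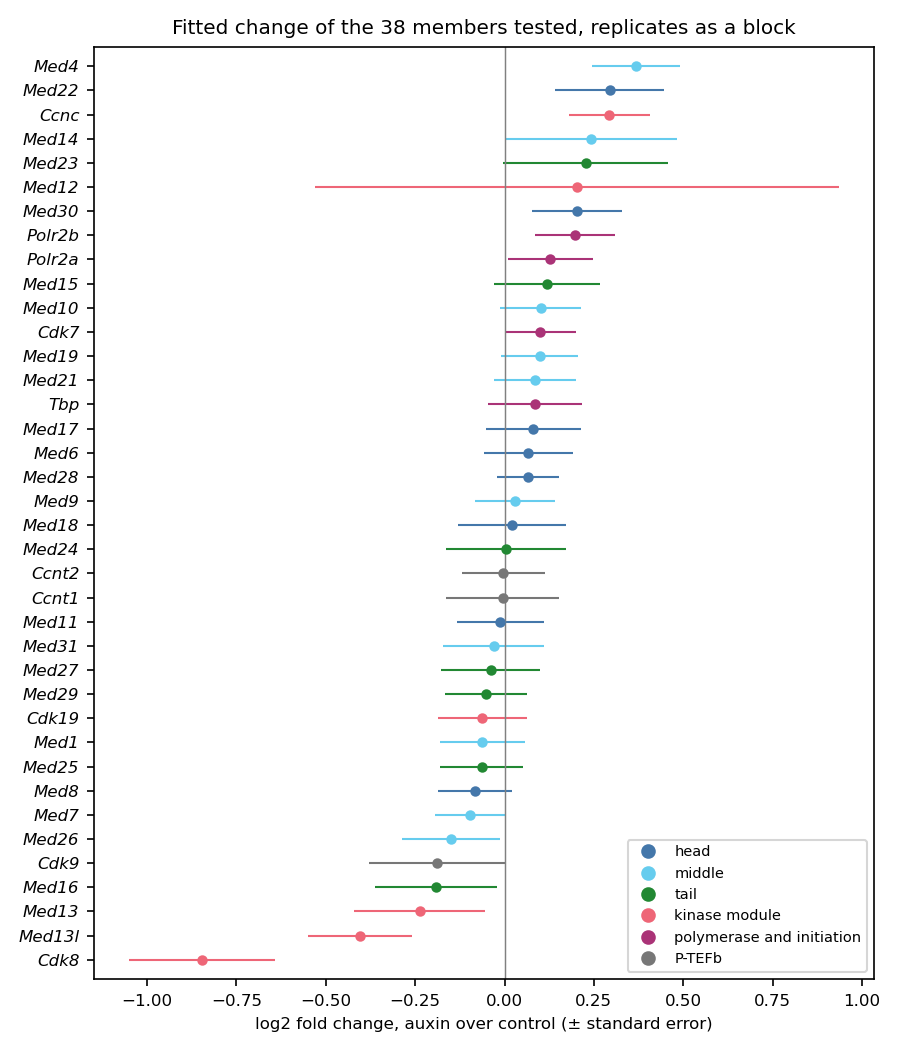
Fitted log2 fold change of auxin over control for the 38 members that passed the filter on low counts, with replicates as a block. Points are estimates, bars are standard errors and colours are the modules. Cdk8 lies at -0.85, and the others lie between -0.40 (Med13l) and 0.37 (Med4).

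The 3 highest estimates were those of Med4, Med22 and Ccnc, and the 3 lowest those of Cdk8, Med13l and Med13, and none was called. Med4, a middle subunit, was at 52.0 CPM in control and 69.1 CPM after auxin in replicate 1, at 91.8 and 105 CPM in replicate 2, and at 67.8 and 99.6 CPM in replicate 3. It was higher after auxin in 3 of 3 replicates, with a log2 fold change of 0.37 ± 0.12 (block, adjusted p = 0.763). The ranges of the conditions overlapped when pooled over the replicates, which differ in level. Med22, a head subunit, was at 28.1 and 29.5 CPM, 43.45 and 54.9 CPM, and 32.6 and 47.4 CPM (0.29 ± 0.15, adjusted p = 0.848).

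The kinase module held both directions. Ccnc, the cyclin that partners CDK8 and CDK19, was at 54.0 and 69.8 CPM, 51.5 and 65.4 CPM, and 69.7 and 80.2 CPM in control and auxin-treated cells of replicates 1, 2 and 3 (0.29 ± 0.11, adjusted p = 0.826). Med13l, which encodes one of the alternative links between the kinase module and the core, was at 31.6 and 26.9 CPM, 43.0 and 28.9 CPM, and 50.6 and 39.6 CPM (-0.40 ± 0.15, adjusted p = 0.775). Its relative Med13 was at 14.1 and 11.2 CPM, 21.3 and 18.8 CPM, and 21.1 and 19.0 CPM (-0.24 ± 0.18, adjusted p = 0.898). Each kept 1 direction in 3 of 3 replicates, and for each the ranges of the conditions pooled over the replicates overlapped. Med12 gave 0.20 ± 0.73 and Cdk19 -0.06 ± 0.12.

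Cdk8 had lower values after auxin in the 2 replicates in which it was abundant, while the replicate 1 values were close (17.7 and 17.4 CPM). Its estimate was -1.16 ± 1.55 without a block and -0.85 ± 0.20 with it (edgeR, adjusted p = 1.00 and 0.636). Without replicate 1 the block fit gave -1.16 with an adjusted p of 0.00261, in a fit that called 14 of 19657 genes (0.0712%) and takes its error largely from the spread shared across genes. Without replicate 2 the adjusted p was 0.161 and without replicate 3 it was 1.00. The call without replicate 1 was the only call of a member between conditions in any fit. In replicate 2 the control plates ran from 905 to 1959 CPM and the auxin plates from 654 to 1065 CPM, so they overlapped. In replicate 3 the control plate was at 2035 CPM and the auxin plate at 733 CPM, and the plates whose condition is not settled were at 1866 CPM (control in the annotation, auxin in the source values) and 776 CPM (the reverse). With the annotation for all plates the block estimate was -0.82, and with the source values it was -0.36, with an adjusted p of 0.985.

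Gm42418, which had the highest correlation with Cdk8 per cell in replicates 2 and 3, had lower sums after auxin in 3 of 3 replicates. It was at 2448 CPM in control and 1449 CPM after auxin in replicate 1, at 1534 and 1183 CPM in replicate 2, and at 2188 and 1267 CPM in replicate 3. In replicate 1, where Gm42418 was highest in control cells, Cdk8 was lowest and differed little between conditions. The Gm42418 plates of replicate 1 overlapped, with 3474 and 1553 CPM in control and 1759.5 and 1100.2 CPM after auxin. In replicate 2 its control plates (1364 to 1637 CPM) did not overlap its auxin plates (1066 to 1311 CPM), as was the case for 13.3% of all genes tested. The unsettled plates of replicate 3 were at 2079 and 1243 CPM, in the same order as for Cdk8. The mitochondrial ribosomal RNAs also had lower sums after auxin in 3 of 3 replicates. For mt-Rnr1 these were 2434 and 1701 CPM, 1017 and 759.5 CPM, and 1127 and 915 CPM in control and auxin-treated cells, and for mt-Rnr2 7340.4 and 6119.9 CPM, 2691 and 2245 CPM, and 2621 and 2547 CPM. The part of these RNAs in the Cdk8 counts was not tested.

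**Figure D3:**
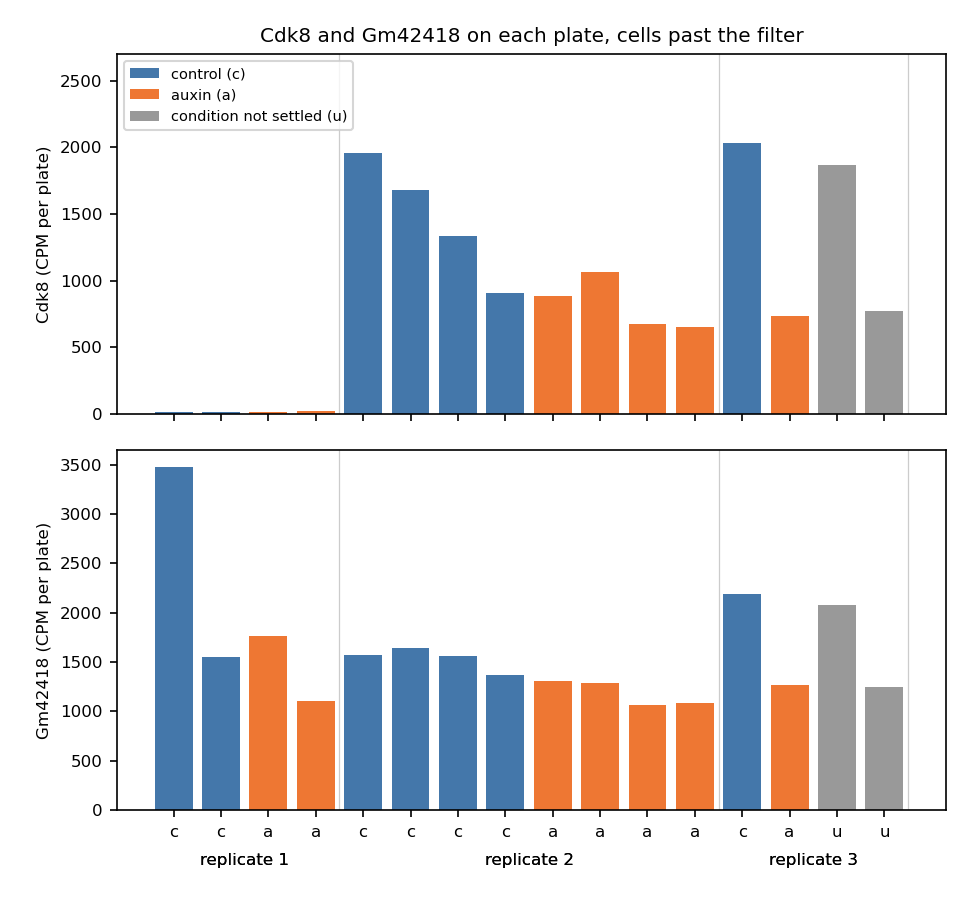
Cdk8 (top) and Gm42418 (bottom) in CPM on each of the 16 plates, 1 bar per plate, by replicate. Blue bars are control (c), orange bars auxin (a) and grey bars plates of unsettled condition (u). Cdk8 lies under 22 CPM on the 4 plates of replicate 1 and between 654 and 2035 CPM on the other 12.

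Because of Cdk8, the summed level of the complex depended on whether it was counted. Over all 32 Mediator subunits the log2 ratio of auxin over control was 0.04, -0.26 and -0.52 in replicates 1, 2 and 3 (mean -0.25 ± 0.28 SD, n = 3). With the source values for the unsettled plates the mean was -0.08, and with counts scaled to the ERCC transcripts it was -0.07 ± 0.33. Without Cdk8, which was an alternative added after seeing the data, the 31 others summed to 1885 and 1941 CPM, 2068 and 2137 CPM, and 2055 and 2115 CPM, a ratio of 0.04, 0.05 and 0.04 (mean 0.04 ± 0.003 SD, n = 3). The 25 core subunits without Med20 summed to between 1741 and 1953 CPM in all 6 sums.

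The modules gave ratios close to 0 as well. The mean log2 ratio was 0.07 ± 0.07 (SD, n = 3) for the head without Med20, 0.06 ± 0.10 for the middle, -0.04 ± 0.07 for the tail, and 0.02 ± 0.08 for the kinase module without Cdk8 and Cdk19. P-TEFb gave -0.05 ± 0.04. Polymerase and initiation genes gave 0.15 ± 0.05, with 0.20, 0.14 and 0.10 in replicates 1, 2 and 3. No test was made on sums over the members.

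Within that last group no gene was called. Polr2a, the largest subunit of RNA polymerase II, was at 37.1 and 41.4 CPM, 69.5 and 72.2 CPM, and 87.9 and 102 CPM (0.13 ± 0.12, adjusted p = 0.909). Polr2b, the second subunit, was at 52.9 and 63.3 CPM, 87.7 and 95.4 CPM, and 86.4 and 103 CPM (0.20 ± 0.11, adjusted p = 0.865). Cdk7 was at 87.3 and 94.4 CPM, 131 and 151 CPM, and 128 and 129 CPM (0.10 ± 0.10, adjusted p = 0.913). These 3 genes had higher values after auxin in 3 of 3 replicates, and for each the ranges of the conditions pooled over the replicates overlapped.

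The P-TEFb genes had estimates below 0, none of them called, and their sum gave log2 ratios of -0.08, -0.004 and -0.06 in replicates 1, 2 and 3. Cdk9, its kinase, was at 42.1 and 25.8 CPM in replicate 1, 34.4 and 39.3 CPM in replicate 2, and 47.0 and 46.4 CPM in replicate 3 (-0.19 ± 0.19, adjusted p = 0.915). Ccnt1 was at 17.0 and 19.1 CPM, 25.4 and 23.9 CPM, and 36.3 and 35.0 CPM, and Ccnt2 at 57.1 and 65.3 CPM, 84.6 and 80.9 CPM, and 78.3 and 73.1 CPM. The estimates of these cyclins were -0.01 and -0.004, with standard errors of 0.16 and 0.12.

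Plates within a replicate gave a second view of the error. In replicate 1, the 2 control and 2 auxin plates did not overlap for 11 of the 38 members tested, beside 31.2% of all genes tested. These were Ccnc, Cdk7, Cdk9, Med4, Med6, Med8, Med16, Med18, Med24, Med25 and Med30. In replicate 2, with 4 plates of each condition, they did not overlap for 5 of 38 members (Ccnc, Cdk7, Med10, Med13l and Med19), beside 13.3% of all genes. Both shares of the members are close to the background.

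Further machinery genes gave the same picture. A list of 74 genes, among them other polymerase subunits, general initiation factors, TBP-associated factors, elongation factors and the Mediator paralogue Med12l, had 71 in the tables and 69 past the filter. None was called between conditions with or without the block, and 7 of 69 had an unadjusted p under 0.05 with the block, beside 5.92% of all genes. Polr2d, Gtf2a2 and Taf7 were higher among these, and Nelfe, Mllt3, Mepce and Taf10 lower. The median log2 fold change of the 69 was 0.000848, with 36 above 0 and 33 below. The lowest estimates were Eaf2 (-1.09 ± 0.53), Mllt3 (-0.69 ± 0.25) and Taf10 (-0.68 ± 0.18, adjusted p = 0.670), and the highest were Eaf1 (0.32 ± 0.18), Taf7 (0.29 ± 0.09) and Taf4 (0.26 ± 0.21). Between replicates 36 of the 69 were called, beside 54.5% of all genes.

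Detection of the members differed more between replicate 1 and the others than between conditions. The median share of cells with at least 1 UMI over the 39 members was 54.2% in control and 60.9% after auxin in replicate 1, 74.1% and 74.8% for replicate 2, and 74.1% and 76.2% for replicate 3. Between 25 and 28 members were found in at least 50% of cells in replicate 1, and 32 or 33 in the other replicates. The mean difference between conditions was 3.19 ± 3.19 percentage points (SD, n = 3), no larger than the spread between replicates, and -2.78 points when all deposited wells were counted.

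To compare groups at 1 depth, 20000 UMIs were drawn from each cell, which left out between 0 and 13 shallower cells per group. The medians then were 36.9% and 42.6%, 51.0% and 50.2%, and 54.8% and 55.7%, so replicate 1 remained lowest. At this depth 14 and 16 of the 39 members were found in at least 50% of cells in replicate 1, 20 in both conditions of replicate 2, and 21 and 23 for replicate 3. In the 201 wells at or under the filter, with a median of 607 UMIs, the median member was seen in 4.98% of wells. Cdk8 was the highest there, at 41.3% of these wells, with 2.13% in replicate 1, 46.7% in replicate 2 and 68.1% in replicate 3.

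**Figure D4:**
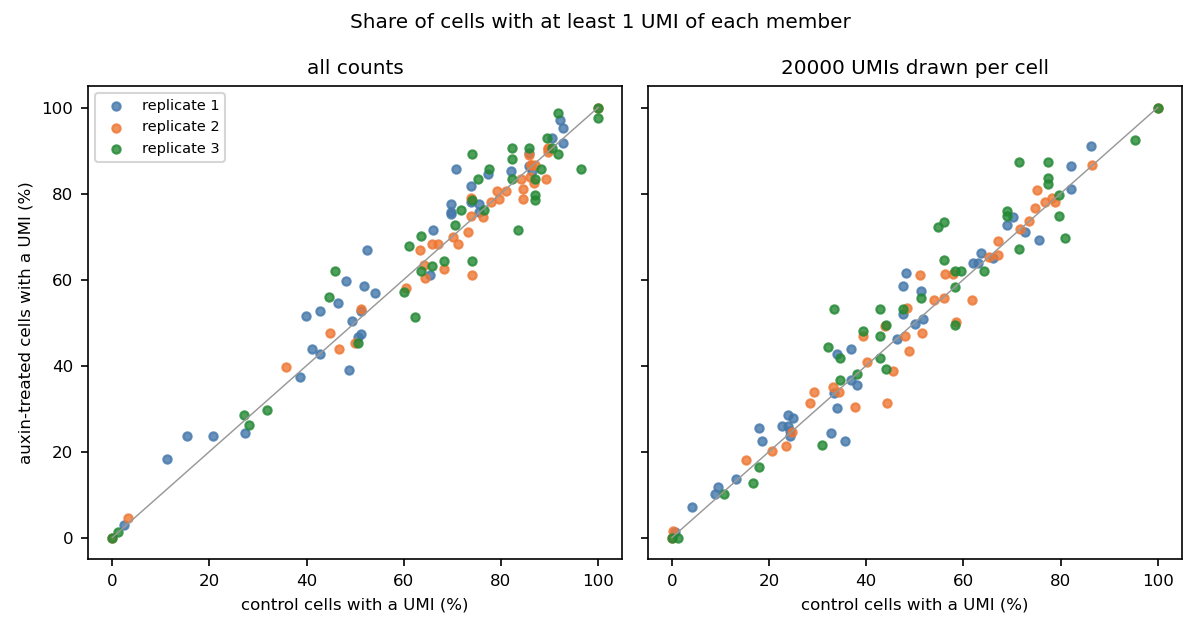
Share of control cells (x axis, percent) and of auxin-treated cells (y axis, percent) with at least 1 UMI of each of the 39 members, by replicate, for all counts (left) and for 20000 UMIs drawn per cell (right). Points scatter around the diagonal in both panels.

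Among the imaged genes, Med6 was seen in 73.8% of control cells of replicate 1 (95% Wilson interval 66.7 to 79.9%) and in 81.7% of auxin-treated cells (75.1 to 86.8%). In replicates 2 and 3 it was seen in 84.1% and 83.4%, and in 87.1% and 83.3%. Med1 was seen in 51.8% (44.3 to 59.2%) and 58.6%, 84.6% and 78.6%, and 74.1% and 89.3%. Tbp was seen in 52.4% (44.9 to 59.8%) and 66.9%, 76.3% and 74.5%, and 76.5% and 76.2%. At 20000 UMIs in replicate 1, Med6 was seen in 47.6% and 58.6% of cells, Med1 in 33.9% and 30.2%, and Tbp in 33.9% and 42.6%. With all counts, none of these 3 genes kept 1 direction over the replicates. Cdk8 was seen in 38.7% and 37.3% of cells in replicate 1 and in 100% of cells in each group of replicates 2 and 3, and Cdk19 in 11.3% and 18.3% against 83.4 to 96.5%.

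The count of most members was higher in cells with a higher UMI total. Over the 38 members that averaged 1 count or more, the median Spearman correlation with the UMI total of the other genes was 0.30 and 0.32 (control and auxin) for replicate 1, 0.51 and 0.53 for replicate 2, and 0.27 and 0.42 for replicate 3. Over all genes of that kind it was 0.24 and 0.25, 0.38 and 0.42, and 0.22 and 0.35. Med20 had 0 UMIs in replicates 2 and 3, so the medians of the members there rest on 37 genes. The highest members were Med25 and Med19 in replicate 1 (both 0.52), Med7 (0.67) and Med28 (0.76) in replicate 2, and Cdk8 (0.64) and Med28 (0.71) in replicate 3. These are descriptions over cells of shared plates.

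Cells were also divided by UMI total into 3 equal classes within each group. The 25 core subunits without Med20 summed to 1715 CPM in the lowest class of control cells in replicate 1 and to 1678 CPM in the highest. In its auxin-treated cells these values were 1748 and 1821 CPM. The ratio of highest over lowest class was 0.978 and 1.04 in replicate 1, 1.16 and 1.09 for replicate 2, and 1.03 and 1.09 for replicate 3, although the median UMI total of the highest class of control cells in replicate 2 was 191147 against 44948.5 in the lowest. Cdk8 had ratios from 0.538 (auxin, replicate 2) to 1.58 (control, replicate 3).

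Correlations among members were weak once depth was taken out. The mean Spearman correlation over pairs of members on raw counts was 0.10 in both conditions of replicate 1, 0.25 and 0.28 (control and auxin) for replicate 2, and 0.08 and 0.19 for replicate 3. Over pairs of all genes it was 0.07 and 0.08, 0.18 and 0.21, and 0.06 and 0.14. The difference of auxin minus control was 0.001, 0.03 and 0.11 in replicates 1, 2 and 3 (mean 0.05 ± 0.06 SD, n = 3). With 20000 UMIs drawn per cell the means lay between -0.002 and 0.02, and the difference was 0.004 ± 0.006. Given the UMI total, the partial correlation differed by -0.002 ± 0.006 between conditions. The coefficient of variation of the UMI total over cells was 37.9% and 34.3% in replicate 1, 48.4% and 51.5% for replicate 2, and 30.6% and 44.4% for replicate 3.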

How the data were processed

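Per the methods of the study, the authors removed adapters, assigned reads to well barcodes and UMIs, and aligned them to mm10. The aligner, the counting program and its annotation are not given in the sources used here. Unnormalized UMI counts of each gene in each well, all whole numbers, were deposited by the authors, with the percent of counts from ERCC transcripts per well and, per plate, the saturation as a fraction (0.283 to 0.314 in replicate 1, 0.539 to 0.579 in replicate 2, 0.470 to 0.531 in replicate 3). The 92 ERCC and 11 transgene rows were left out of every test. All 288 well barcodes occur on more than 1 plate, so cells were identified by plate and well.

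The study's filter was kept (cells above 2600 detected genes). Counts were summed per replicate and condition, since cells are not replicates. The sums were tested with edgeR 4.0.16 in R 4.3.3 (quasi-likelihood test, TMM scaling, filterByExpr, Benjamini-Hochberg adjustment over all genes, threshold 0.05). The main fit had no block. The replicate numbers were taken as pairs because same-numbered sums deviated together from their group means (Pearson correlation over genes 0.854, 0.816 and 0.650), so a fit with the replicate block was run and its estimates are given. DESeq2 1.42.0 was an alternative. The scripts were tested on simulated sums. CPM divides by all mouse UMIs of the sum, intervals are 95% Wilson intervals and cover counting error only, and ratios used for gene length had 1 CPM added. Gene positions came from GENCODE release M21, which held 99.6% of the gene identifiers, and promoters from RefSeq (GRCm38.p6). Other steps used Python 3.11.15, numpy 2.4.6, scipy 1.17.1 and pandas 2.3.3 (seed 1).

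The members and the gene lists were chosen with earlier results of these data known. Named with their value in every sum were the imaged genes, the kinase module, the polymerase and P-TEFb genes, and the 3 members highest and lowest in level, in fold change and in the p of the replicate term. Med20, Med29, Gm42418, mt-Rnr1, mt-Rnr2, Mir6236, Cmss1, Camk1d, F2r, Anp32a, Ncl, Furin, Gm6654, Gm20517 and Gm21986 were added after their values were seen. Strand use in counting is not given, so reads of overlapping genes may not be told apart.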

Additional observations from a re-analysis of the deposited data

How the results depend on the processing

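No member was called between conditions under any alternative except Cdk8 in the fit with the replicate block without replicate 1, so that the number of members called ranged from 0 to 1 over the fits that leave out a replicate. The number of all genes called was 0 in the main fit, 3 with the replicate block, 56 in DESeq2 with the block, and 14, 32 and 2 with the block without replicate 1, 2 and 3 (0 in each without the block). Fits added after seeing the data, with the block and cells above 4000 detected genes, other size factors or the annotation for all plates, each called 3 genes and no member, and the block with the source values of the study called 0. Between replicates 17 members and 9542 genes were called, and 17 to 19 members in the alternatives on filters, scaling and plates. Leaving out a replicate, also added, gave 3 to 19 members and 3836 to 9771 genes, the lowest of both without replicate 1. The summed Mediator ratio of -0.25 became 0.0438 without Cdk8 and 0.0485 without Cdk8, Cdk19, Med12 and Med20, because Cdk8 makes up to 49.7% of the sum. It ranged from -0.39 to -0.11 over the replicates left out, and was -0.07 per ERCC count and -0.08 with the source values for the unsettled plates. The difference in the share of cells with a UMI became -2.78 percentage points with all deposited wells, and the cause was not tested. The other medians, shares and correlations moved by less than 1 SD of the replicates. Of 416 estimates for the 22 named members, 38 had the opposite sign to their main value, none of them called, and 12 members, among them Cdk8, Med4, Ccnc and Med13l, had no change of sign. The replicate block changed no other call. Depth limits Med12, whose standard error was 0.73 on the log2 scale.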
